A study of Mus musculus with 8 samples.

Results

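The transcription factors Snai1, Snai2, Twist1, Twist2, Zeb1, Zeb2, Prrx1 and Prrx2 were followed in mouse intestinal stromal cells. They were taken by gene symbol, and all 8 are among the 24930 genes of the deposited expression table. The stromal cells carried a low level of the receptor Pdgfra (Pdgfra-lo) and were profiled by sequencing of poly-A RNA. They were grown in Matrigel, a basement membrane extract, alone (3 libraries), with control duodenal enteroids labelled wild type (3 libraries), or with enteroids carrying a gain-of-function form of β-catenin, the effector of WNT signalling (BcatGOF, 2 libraries). Cocultures lasted 7 days with 50000 stromal cells per culture, in a medium lacking the niche factors EGF, Noggin and R-spondin1, and live GFP-positive cells were then sorted. The labels do not say what drives GFP, which strain or age the mice had, or whether libraries with different numbers came from different animals, so p-values measure the spread between these libraries. The comparisons ask how the stromal cells differ when healthy or β-catenin-activated epithelium is beside them.

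These factors come from 4 families that are known for the transition of epithelial cells to migrating mesenchymal cells, and fibroblasts use them as part of their normal identity. SNAIL proteins (Snai1, and Snai2, also called Slug) are zinc finger repressors that bind E-box sequences, for example at the gene for E-cadherin. ZEB proteins bind similar sequences through zinc finger clusters at both ends. TWIST proteins are basic helix-loop-helix factors that bind E-boxes as dimers, and PRRX proteins are homeodomain factors of limb, face and connective tissue mesenchyme. TGF-β is a textbook inducer of Snai1.

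Snai1 and Prrx1 were the members with a higher value in every same-numbered pair of coculture and culture alone. Of 12927 genes tested, 20.6% were so for wild type and 28.9% for BcatGOF. The 250 bases before the annotated starts of both members are shown (RefSeq, GRCm38.p6, sense strand of the gene, 5′ to 3′). Capitals mark the letters of a motif. The window of Snai1 is chr2:167537945-167538194 on the plus strand and that of Prrx1 is chr1:163313651-163313900 on the minus strand.
Snai1: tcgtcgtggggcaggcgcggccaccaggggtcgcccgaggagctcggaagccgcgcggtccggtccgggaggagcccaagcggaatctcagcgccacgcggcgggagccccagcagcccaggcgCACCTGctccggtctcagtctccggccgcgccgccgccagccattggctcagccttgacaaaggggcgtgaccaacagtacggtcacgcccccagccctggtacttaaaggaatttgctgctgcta
Prrx1: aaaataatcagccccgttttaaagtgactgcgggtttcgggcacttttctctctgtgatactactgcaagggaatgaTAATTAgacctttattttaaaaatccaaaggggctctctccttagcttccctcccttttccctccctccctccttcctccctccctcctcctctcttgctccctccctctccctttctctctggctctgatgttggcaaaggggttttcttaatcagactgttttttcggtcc
The window of Snai1 held CACCTG 126 bases before the start. CACCTG is the reverse complement of CAGGTG, the E-box letters that SNAIL and ZEB proteins are known to bind. The window of Prrx1 held TAATTA, the core of many homeodomain sites, 173 bases before the start. Of 32851 promoter windows of 250 bases, 17.2% held CAGGTG or CACCTG, 3.46% held CATATG, 14.4% held CAGATG or CATCTG and 4.84% held TAATTA, all searched on both strands, and no hit in a member overlapped another. RefSeq windows were matched for 6 of the 8 members, and the other 7 of their 9 windows held none of these letters.

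Values are FPKM, fragments scaled to transcript length and library size, which allows levels of different genes to be compared. Relative depth, read from the steps between low values, ran from 0.796 to 1 of that of the first library grown alone, and the number of reads is unknown. The first principal component held 40.3% of the variance and placed BcatGOF replicate 2 at 63.6, with the other 7 libraries between -38.9 and 25.4. Stromal markers were present in every library, with Pdgfra at 52.4 to 134 FPKM and Dcn, a matrix proteoglycan of fibroblasts, at 2716 to 5673 FPKM. As these are bulk libraries, a lower value from fewer cells of a type and one from less RNA per cell cannot be told apart.

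Snai1 was the most abundant of the 8 factors in all 8 libraries, at 60.1 to 197 FPKM. Prrx2 followed at 24.0 to 69.6 FPKM and ranked 2 or 3 in every library. Prrx1 spanned 10.9 to 55.1 FPKM and ranked anywhere from 2 to 8. Twist1 (13.6 to 27.9 FPKM), Twist2 (12.2 to 47.2 FPKM), Zeb2 (9.99 to 22.7 FPKM), Zeb1 (9.31 to 17.7 FPKM) and Snai2 (10.3 to 17.1 FPKM) lay below, and their ranges overlapped. By mean level Snai1 stood at the 94.6th percentile of the 12927 genes tested, those that reached 1 FPKM in 2 or more libraries, and Snai2, the lowest by mean, at the 55.7th. Snai1 made up 31.6% ± 4.71 (SD, n = 3) of the summed FPKM of the 8 factors in cells grown alone, 44.8% ± 9.40 (n = 3) with wild-type enteroids, and 37.3% and 47.3% in the BcatGOF cocultures.

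**Figure D1:**
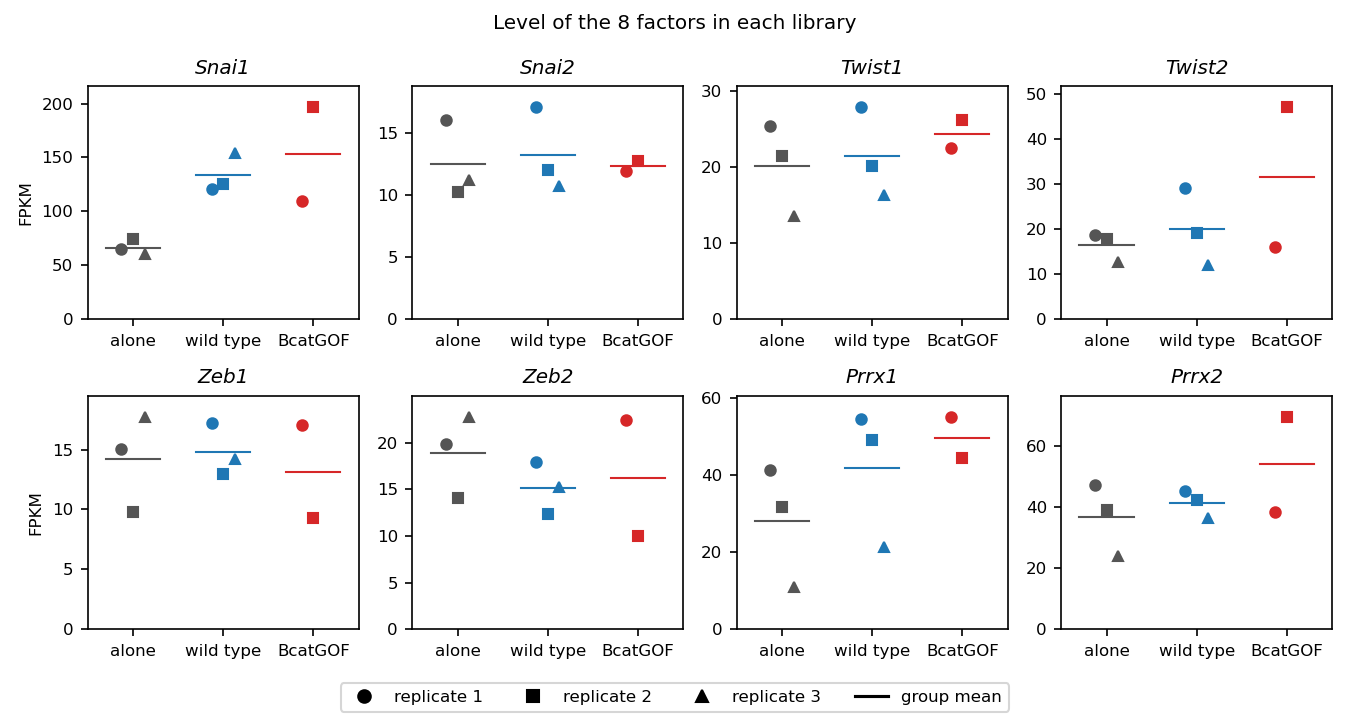
FPKM of each factor in each library (points, shape by replicate number) with the group mean (line), for stromal cells grown alone, with wild-type enteroids or with BcatGOF enteroids. Snai1 sits at 60.1 to 74.0 FPKM in cells grown alone and at 109 FPKM or more in all 5 cocultures. The groups overlap for the other factors except Prrx1 in BcatGOF coculture against cells grown alone. Of the tested genes, 6.35% with wild-type and 8.49% with BcatGOF enteroids lay wholly above cells grown alone.

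Snai1 was at 65.3, 74.0 and 60.1 FPKM in replicates 1, 2 and 3 of cells grown alone. It was at 121, 126 and 155 FPKM with wild-type enteroids, and at 109 and 197 FPKM with BcatGOF enteroids. Every coculture lay above every library grown alone, as did 6.35% of the tested genes for wild type and 8.49% for BcatGOF. The wild-type and BcatGOF cocultures overlapped, and the BcatGOF libraries held both the lowest and the highest value of the 5. The ratio of means was 2.01 for wild type and 2.30 for BcatGOF over cells grown alone. In limma on log2 of FPKM plus 1, the log2 fold change with wild-type enteroids was 0.99 (SE 0.24, 95% interval 0.43 to 1.56), with adjusted p = 0.701 over all tested genes. With BcatGOF enteroids it was 1.13 (SE 0.27, 95% interval 0.50 to 1.76), with adjusted p = 0.894 in limma. Both intervals lay above 0, and neither comparison passed after adjustment. By unadjusted p Snai1 ranked 68th and 28th among the tested genes in these comparisons. Between BcatGOF and wild type the log2 fold change was 0.14 (SE 0.27, 95% interval -0.49 to 0.77).

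Within replicate numbers Snai1 was higher in every pair with either coculture, as were 20.6% of the tested genes for wild type and 28.9% for BcatGOF. Its log2 differences from the same-numbered library grown alone were 0.88, 0.75 and 1.35 with wild-type enteroids and 0.73 and 1.397 with BcatGOF enteroids. The BcatGOF coculture was 0.14 below the wild-type coculture on this scale in replicate 1 and 0.64 above it in replicate 2. Without BcatGOF replicate 1 the log2 fold change over cells grown alone was 1.56 and passed (adjusted p = 0.0383, limma), with the lone library assumed to vary like the other groups. In that fit 1.55% of 12814 genes passed. Twist2, Zeb2 and Prrx2 then had an unadjusted p under 0.05 beside Snai1, as did 18.4% of genes, and against wild type Twist2 alone of the members had one, as did 11.1%. Without BcatGOF replicate 2 it was 0.71 (adjusted p = 1, limma).

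Snai2, the closest relative of Snai1, was nearly level. It was at 16.1, 10.3 and 11.3 FPKM in cells grown alone, at 17.1, 12.0 and 10.7 FPKM with wild-type enteroids, and at 11.9 and 12.8 FPKM with BcatGOF enteroids. All groups overlapped. The log2 fold changes over cells grown alone were 0.08 (SE 0.22, 95% interval -0.43 to 0.58) and 0.0049 (SE 0.24, 95% interval -0.56 to 0.57), and the second turned negative under both other scalings. The ratio of Snai1 to Snai2 was 4.07, 7.22 and 5.34 in cells grown alone, 7.07, 10.5 and 14.4 with wild-type enteroids, and 9.14 and 15.4 with BcatGOF enteroids. It was higher in coculture in every same-numbered pair, although the wild-type group overlapped with cells grown alone (two-sided exact permutation p = 0.2, where 0.1 is the smallest possible for 3 against 3). Another SNAIL gene, Snai3, was at 0 in 5 libraries and at most 0.0702 FPKM in the others.

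Twist1, known for its part in head and limb mesenchyme, was at 25.5, 21.4 and 13.6 FPKM in cells grown alone, at 27.9, 20.1 and 16.3 FPKM with wild-type enteroids, and at 22.6 and 26.2 FPKM with BcatGOF enteroids. The groups overlapped, and the log2 fold changes over cells grown alone were 0.10 (SE 0.27) and 0.30 (SE 0.30). Twist2, known as Dermo1 for its expression in dermis, was at 18.8, 17.9 and 12.8 FPKM in cells grown alone and at 29.2, 19.1 and 12.2 FPKM with wild-type enteroids. With BcatGOF enteroids it was at 16.1 FPKM in replicate 1 and 47.2 FPKM in replicate 2, the highest value of the 8 libraries. Its log2 fold change with BcatGOF enteroids was 0.73 (SE 0.48, 95% interval -0.39 to 1.85), with adjusted p = 0.938 in limma. It was 1.48 without BcatGOF replicate 1 and -0.02 without BcatGOF replicate 2. The ratio of Twist1 to Twist2 lay between 0.956 and 1.41 in 7 libraries and at 0.555 in BcatGOF replicate 2.

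Zeb1, whose product represses epithelial genes and which is held down by the miR-200 family, was at 15.1, 9.75 and 17.7 FPKM in cells grown alone. It was at 17.3, 12.96 and 14.2 FPKM with wild-type enteroids and at 17.0 and 9.31 FPKM with BcatGOF enteroids. Zeb2, also called SIP1 for binding SMAD proteins, was at 19.8, 14.0 and 22.7 FPKM in cells grown alone, at 17.9, 12.3 and 15.2 FPKM with wild-type enteroids, and at 22.5 and 9.99 FPKM with BcatGOF enteroids. All groups overlapped for both genes, and both were lowest of all libraries in BcatGOF replicate 2. The log2 fold changes over cells grown alone were 0.09 (SE 0.28) and -0.12 (SE 0.31) for Zeb1, and -0.29 (SE 0.31) and -0.28 (SE 0.34) for Zeb2, with wild-type and BcatGOF enteroids in that order. Without BcatGOF replicate 2 the BcatGOF values turned to 0.28 for Zeb1 and 0.27 for Zeb2, and without BcatGOF replicate 1 they were -0.52 and -0.83. Within replicate numbers Zeb2 was lower with wild-type enteroids in all 3 pairs, by log2 differences of -0.14, -0.17 and -0.55, as were 17.4% of the tested genes. With BcatGOF enteroids 0 members were lower in both pairs, against 28.5%. Zeb2os, a gene antisense to Zeb2, was at 1.15 to 3.08 FPKM over the 8 libraries. Without knowledge of the strand, reads of the 2 genes cannot be told apart where they overlap.

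The ratio of Zeb2 to Zeb1 within a library separated cells grown alone from wild-type cocultures. It was 1.31, 1.44 and 1.28 in cells grown alone and 1.04, 0.953 and 1.07 with wild-type enteroids. The groups did not overlap (two-sided exact permutation p = 0.1, the smallest possible for 3 against 3). Over the 12 tests of 4 ratios in 3 comparisons the permutation test gave an adjusted p of 0.6. With BcatGOF enteroids the ratio was 1.32 in replicate 1 and 1.07 in replicate 2, so that 1 library lay with each of the other groups.

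**Figure D2:**
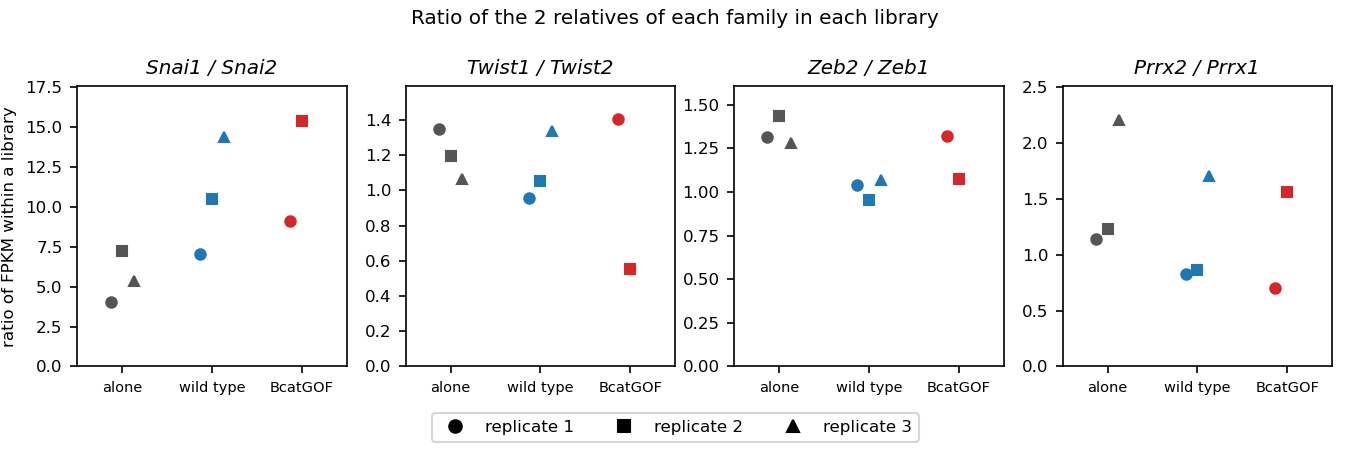
Ratio of FPKM between the 2 relatives of each family in each library (points, shape by replicate number), by culture. The Zeb2 to Zeb1 ratio is 1.28 to 1.44 in cells grown alone and 0.953 to 1.07 with wild-type enteroids, and the Snai1 to Snai2 ratio is 4.07 to 7.22 in cells grown alone and 7.07 or more in coculture.

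Prrx1, a homeodomain factor of fibroblast progenitors, was at 41.4, 31.8 and 10.9 FPKM in cells grown alone. It was at 54.7, 49.3 and 21.3 FPKM with wild-type enteroids and at 55.1 and 44.4 FPKM with BcatGOF enteroids. The wild-type group overlapped with cells grown alone. Both BcatGOF libraries lay above all 3 libraries grown alone, as they did for 8.49% of the tested genes. The log2 fold changes were 0.64 (SE 0.52, 95% interval -0.57 to 1.85) and 0.99 (SE 0.58, 95% interval -0.36 to 2.34), with adjusted p = 1 and adjusted p = 0.914 in limma. Without replicate 3 of cells grown alone, the lowest library for Prrx1, they were 0.089 and 0.44. Most of this spread lay between replicate numbers. Within them Prrx1 was higher in coculture in all 5 pairs, as were 20.6% of the tested genes for wild type and 28.9% for BcatGOF. Its log2 differences were 0.39, 0.62 and 0.91 with wild-type enteroids and 0.40 and 0.47 with BcatGOF enteroids. With the replicate number as a block the log2 fold change with wild-type enteroids was 0.64 (SE 0.13, 95% interval 0.32 to 0.96), with unadjusted p = 0.00279 and adjusted p = 0.247 in limma. With BcatGOF enteroids it was 0.50 (SE 0.15), with adjusted p = 0.632 in limma.

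Prrx2, its relative with a like homeodomain, was at 47.2, 39.2 and 24.0 FPKM in cells grown alone, at 45.3, 42.4 and 36.3 FPKM with wild-type enteroids, and at 38.5 and 69.6 FPKM with BcatGOF enteroids. The groups overlapped, and the highest value was again that of BcatGOF replicate 2. The log2 fold changes over cells grown alone were 0.21 (SE 0.30) and 0.53 (SE 0.33), and the second was 0.95 without BcatGOF replicate 1 and 0.11 without BcatGOF replicate 2. Prrx2 differed in direction between pairs, with -0.06, 0.11 and 0.58 for wild type and -0.29 and 0.81 for BcatGOF.

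**Figure D3:**
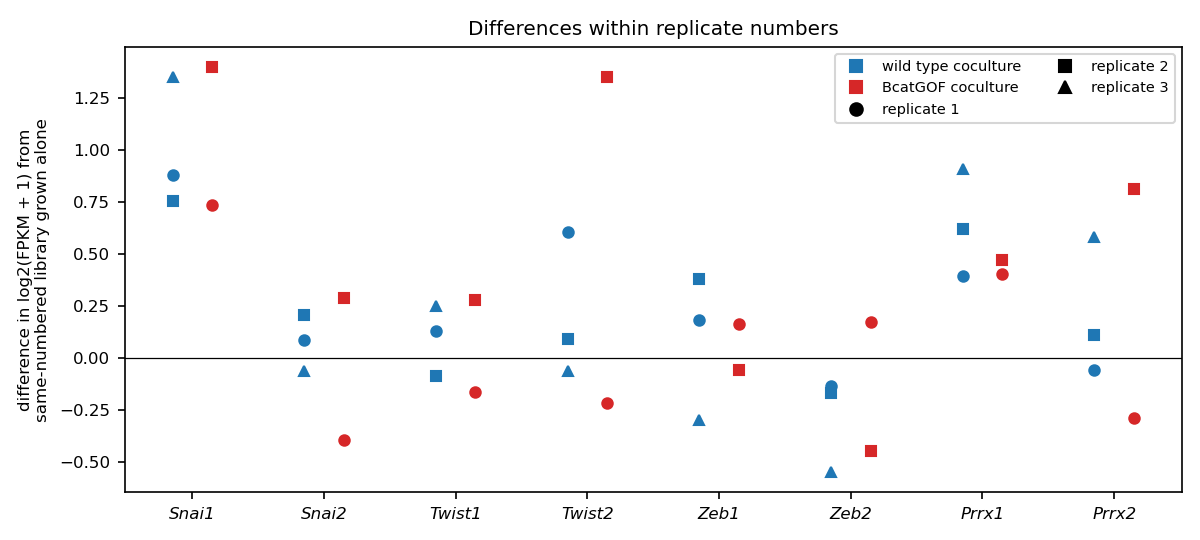
Difference in log2 of FPKM plus 1 between each coculture and the library of the same replicate number grown alone, for each factor (blue, wild-type enteroids; red, BcatGOF enteroids; shape, replicate number). Snai1 (0.73 to 1.397) and Prrx1 (0.39 to 0.91) lie above 0 in all 5 pairs. Of the tested genes, 20.6% were higher in every wild-type pair and 28.9% in every BcatGOF pair.

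No member other than Snai1 and Prrx1 lay wholly above or below cells grown alone. With wild-type enteroids 5.61% and with BcatGOF enteroids 7.82% of the tested genes lay wholly below. Between BcatGOF and wild type 0 members were separated, where 6.36% of genes lay wholly above and 7.64% wholly below. In same-numbered pairs of these cocultures 0 members were higher with BcatGOF in both, against 22.2% of genes, and Zeb1 was lower in both, against 24.5%.

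Over the 8 factors together, 0 passed in any of the 3 comparisons in limma, where 0.00774% of 12927 tested genes passed for wild type and for BcatGOF against cells grown alone and 0% for BcatGOF against wild type. At an unadjusted p under 0.05 there was 1 member, Snai1, in each comparison with cells grown alone, where 4.9% (wild type) and 5.5% (BcatGOF) of all genes had such a p. Between BcatGOF and wild type there were 0 members, against 2.89% of all genes. With wild-type enteroids 7 of 8 members had a log2 fold change above 0, with a median of 0.15 beside 0.02 over all tested genes, of which 53.8% were above 0. Single libraries decided that count: it was 3 of 8 with a median of -0.05 without wild-type replicate 1, 5 of 8 with 0.03 without replicate 3 of cells grown alone, and 5 of 8 with 0.22 without replicate 2 of cells grown alone. With BcatGOF enteroids these were 6 of 8 (5 of 8 under either other scaling, where Snai2 turned) with a median of 0.42 beside 0.01, and 52.4% of all genes. That median was 0.22 with the replicate block (5 of 8 above 0), 0.16 without replicate 3 of cells grown alone and 0.23 without BcatGOF replicate 2. Both comparisons share the libraries grown alone. BcatGOF against wild type gave 6 of 8 above 0 and a median of 0.17 beside 0.01 where 51.4% of all genes were above 0. It gave 4 of 8 with a median of 0.04 with the block, 4 of 8 with 0.0048 without BcatGOF replicate 2, and 5 of 8 with 0.02 without wild-type replicate 3. With the replicate block Prrx1 joined Snai1 at an unadjusted p under 0.05 in both comparisons with cells grown alone, where 10.3% and 7.84% of all genes had one. Between BcatGOF and wild type 0 members had one, against 5.03%. After adjustment 0 members passed with the block, where 0.0155% of genes passed for wild type and 0.00774% for BcatGOF against cells grown alone.

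**Figure D4:**
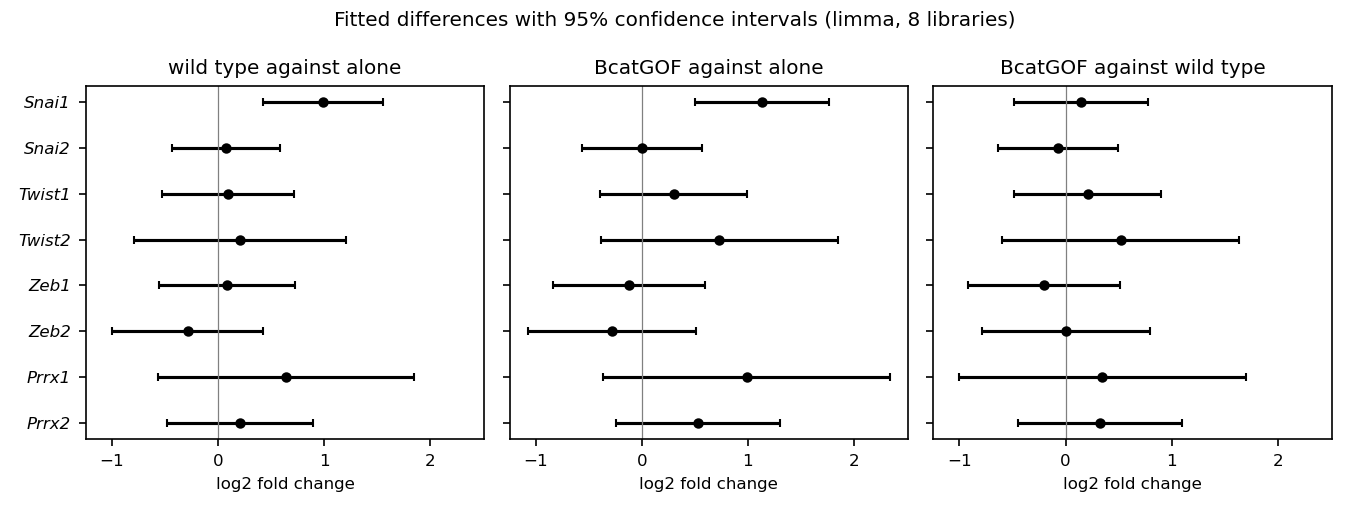
Fitted log2 fold change of each factor (point) with its 95% confidence interval (bar) from limma on 8 libraries, in 3 comparisons. The intervals of Snai1 lie above 0 against cells grown alone (0.43 to 1.56 and 0.50 to 1.76). All other intervals hold 0 in this fit, which leaves out the replicate number. With that number as a block the intervals of Prrx1 also lie above 0 against cells grown alone (0.32 to 0.96 and 0.13 to 0.88, adjusted p 0.247 and 0.632, limma).

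The BcatGOF libraries differed from each other in most of these genes. Against the mean of cells grown alone, the log2 ratio of FPKM, with nothing added, in replicates 1 and 2 was 0.72 and 1.56 for Snai1, -0.04 and 1.51 for Twist2, 0.06 and 0.92 for Prrx2, and 0.25 and -0.92 for Zeb2. The authors' deposited table of BcatGOF coculture against cells grown alone lists 2184 genes, 8.76% of those in the FPKM table, and holds these 4 members. In the authors' deposited table the log2 fold change was 1.84 for Snai1 (SE 0.24, adjusted p = 3.36e-12), from a mean normalized count of 3901. The authors' deposited table gives 1.496 for Twist2 (SE 0.37), 1.34 for Prrx2 (SE 0.34) and -1.16 for Zeb2 (SE 0.30), with adjusted p from 6.68e-04 to 0.0014. Each of these 4 values lay nearer to replicate 2 than to replicate 1. The same held across the table: over 1426 listed genes with at least 1 FPKM in every library, the value in the authors' deposited table differed from the log2 ratio of replicate 2 with an SD of 0.28, from that of replicate 1 with an SD of 1.54, and from that of their mean with an SD of 0.875. The sources used here do not say which libraries entered that comparison.

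**Figure D5:**
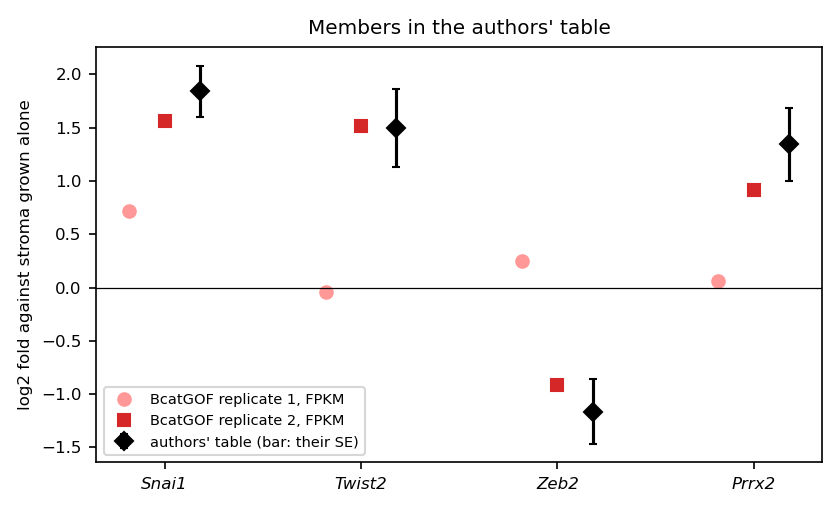
Log2 fold against cells grown alone for the 4 factors in the authors' deposited table (diamonds, bar: the authors' standard error), beside the log2 ratio of FPKM in BcatGOF replicate 1 (circles) and replicate 2 (squares) over the mean of cells grown alone. The authors' values of 1.84, 1.496, -1.16 and 1.34 lie nearer to replicate 2 for each factor.

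The replicate number set part of the spread of several members. Zeb1 and Zeb2 were lowest in replicate 2 of all 3 groups, as were 15.7% of the tested genes. Replicate 2 was also the number whose libraries carried Xist, the RNA of the inactive X chromosome, at 27.2 to 34.9 FPKM, against at most 0.174 FPKM in the others. Ddx3y, a gene of the Y chromosome, was at most 0.109 FPKM in replicate 2 and at 15.8 to 20.8 FPKM in the others. Replicate 2 thus came from other animals than replicates 1 and 3. Its number and the sex of its cells cannot be told apart here. Twist1, Twist2, Prrx1 and Prrx2 were lowest in replicate 3 of both groups that have one, as were 19.7% of the tested genes. The residual SD within groups on the log2 scale was 0.77 for Prrx1 and 0.63 for Twist2, above that of 93.2% and 89.5% of the tested genes. It was 0.31 for Snai1 and 0.29 for Snai2, beside a median of 0.27 over all tested genes.

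Likeness of profiles was measured as the root mean square difference between log2 values over the 8 libraries, each gene centred on its own mean. Among the 28 pairs of members, Zeb1 and Zeb2 were the most alike, at 0.19, followed by Twist1 and Prrx2 at 0.22 and Snai2 and Twist1 at 0.23. Zeb2 and Prrx1 were the least alike, at 0.91. Snai1 was nearer to Prrx2 (0.44) than to Snai2 (0.61). Among 9006 other genes with a mean of at least 5 FPKM, the nearest to Snai1 were the arsenic methyltransferase As3mt (0.14) and the ubiquitin ligase Wwp2 (0.15), where the median gene stood at 0.59. As3mt was at 2.36 to 3.27 FPKM in cells grown alone and at 4.30 to 9.99 FPKM in coculture. It was picked for its likeness to Snai1, so that choice set this direction. Nearest to Zeb1 were Luzp1 and Nfatc3 (both 0.07), and nearest to Zeb2 were Antxr2 (0.08) and Ccnd2, a cyclin of the G1 phase (0.09). Nearest to Twist1 were the helicase Ddx39 and the splicing factor Ppil1 (both 0.10), and nearest to Twist2 were Ptgs1, a cyclooxygenase (0.19), and Zwint, a kinetochore protein (0.21). Nearest to Snai2 were Sun2 (0.11) and Grk6 (0.12), nearest to Prrx2 were Gcnt2 (0.11) and Psmd12 (0.14), and nearest to Prrx1 were C1qtnf3 (0.26) and Cd53 (0.28).

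Genes that work with these factors were described from lists, in which 0 genes passed in any comparison in limma. The number of genes at an unadjusted p under 0.05 follows each list, for wild-type and then BcatGOF enteroids against cells grown alone. Of 12 TGF-β and SMAD inputs, 10 were higher with wild-type enteroids, with a median log2 fold change of 0.17, and 6 with BcatGOF enteroids, with a median of 0.09, and 3 and 5 had such a p, all higher. Tgfb1, a ligand, was at 70.5, 55.4 and 45.5 FPKM in cells grown alone and at 123, 157 and 86.7 FPKM with wild-type enteroids. With BcatGOF enteroids it was at 97.1 and 205 FPKM. Like Snai1 it was above all libraries grown alone in all 5 cocultures. Of the tested genes 6.35% lay so for wild type and 8.49% for BcatGOF. Another ligand, Tgfb2, was at 9.23, 5.23 and 8.19 FPKM alone, at 2.77, 5.06 and 5.85 FPKM with wild-type enteroids, and at 8.57 and 1.83 FPKM with BcatGOF enteroids. Tgfb3 was at 23.5, 25.1 and 51.8 FPKM alone, at 31.3, 45.1 and 55.0 FPKM with wild-type enteroids, and at 25.0 and 14.9 FPKM with BcatGOF enteroids. For both ligands each coculture overlapped with cells grown alone. Smad7 and Skil, known as inhibitors of the pathway, were among the genes with such a p in both comparisons. The receptor Tgfbr2 was at 108 to 139 FPKM in cells grown alone and at 60.0 to 189 FPKM in coculture. Whether TGF-β bears on the Snai1 values was not tested. Of 7 dimer partners and ID inhibitors of TWIST, 2 were higher with wild-type (median -0.19) and 4 with BcatGOF enteroids (median 0.11), and 0 had such a p. The most abundant were the inhibitors Id3 (193 to 588 FPKM), Id1 (34.4 to 243 FPKM) and Id2 (48.9 to 163 FPKM), each highest in BcatGOF replicate 2.

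Corepressors that SNAIL and ZEB proteins are known to recruit were nearly level. Of 16 tested, 12 were higher with wild-type enteroids (median 0.11) and 10 with BcatGOF enteroids (median 0.02), and 0 had such a p. Their summed level ran from 542 to 611 FPKM over the 8 libraries. Ctbp1 was at 85.4 to 119 FPKM, the deacetylase Hdac1 at 58.6 to 85.7 FPKM and the methyltransferase Ehmt2 at 55.6 to 75.4 FPKM. Of 14 kinases, phosphatases and ubiquitin ligases acting on SNAIL proteins, 8 and 9 were higher, with medians of 0.04 and 0.07, and 0 and 1 had such a p. Of 20 mesenchymal adhesion, cytoskeleton and matrix genes, 16 were higher with wild-type enteroids (median 0.32) and 8 with BcatGOF enteroids (median -0.27), and 5 and 2 had such a p. The collagen gene Col1a1 was at 1278 to 3990 FPKM in cells grown alone, at 3031 to 5725 FPKM with wild-type enteroids, and at 2187 and 1103 FPKM with BcatGOF enteroids. In both BcatGOF libraries Snai1 was above, and Col1a1 was not above, the range of cells grown alone. Col1a1 does not stand for the whole list, of which 8 were higher and 12 lower with BcatGOF enteroids. Itga5, from the same list, was above that range in both, at 136 and 153 FPKM against at most 120 FPKM alone. A link of these genes to Snai1 was not tested.

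Of 20 epithelial junction, keratin and splicing genes, among them known targets of repression by SNAIL and ZEB proteins, 9 passed the filter. All 9 were higher in both cocultures, with medians of 1.08 and 1.47, and 2 and 6 had such a p. Apart from Krt19 they stayed below 1 FPKM in every library grown alone and passed the filter only through cocultures. Their direction was thus largely set by the filter. Krt19, an epithelial keratin and the most abundant of them, was at 1.90, 1.85 and 2.70 FPKM in cells grown alone, at 6.63, 2.16 and 42.1 FPKM with wild-type enteroids, and at 10.9 and 46.8 FPKM with BcatGOF enteroids. In wild-type replicate 2 Krt19 lay within the range of cells grown alone, and in the other 4 cocultures above it.

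Markers of other cell types were summed in each library. Of the 16 epithelial markers 10 were tested, most of which passed the filter only through cocultures, and 2 and 7 had such a p. All 16 summed to 5.91 to 8.15 FPKM in cells grown alone, with 4 to 6 of them at 0. With wild-type enteroids they summed to 17.9, 9.07 and 133 FPKM and with BcatGOF enteroids to 31.9 and 127 FPKM, with 0 to 2 at 0. The libraries with the most epithelial RNA, wild-type replicate 3 and BcatGOF replicate 2, were also the ones with the most Snai1, at 155 and 197 FPKM. Wild-type replicate 2, with 9.07 FPKM of these markers, was at 126 FPKM of Snai1. The part of epithelial RNA in these values was not tested. The 10 immune markers summed to 24.7 to 133 FPKM, most of it Lyz2 (14.0 to 82.2 FPKM) and Cd14 (5.88 to 70.0 FPKM). Among the others Cd68 was at 1.72 to 6.76 FPKM and Ptprc at most 0.0508 FPKM. The 5 endothelial markers summed to 1.22 FPKM or less and the 4 glial markers to 9.14 FPKM or less. The 4 mesothelial markers summed to 2.40 to 18.4 FPKM in cells grown alone, 7.05 to 50.4 FPKM with wild-type and 5.75 and 8.79 FPKM with BcatGOF enteroids. Among them Msln was at most 0.0243 FPKM in cells grown alone and at 0.146 to 5.45 FPKM in the 5 cocultures. It passed the filter only through cocultures. Wholly above cells grown alone lay 6.35% of the tested genes for wild type and 8.49% for BcatGOF. Another of the 4, Lrrn4, was at most 0.0993 FPKM in any library. Wt1 was highest, at 45.2 FPKM, in wild-type replicate 3. The 6 smooth muscle and pericyte markers summed to 231 to 453 FPKM in cells grown alone, 153 to 566 FPKM with wild-type and 60.8 and 297 FPKM with BcatGOF enteroids. Their part in these values was not tested. Immediate early genes, which sorting and dissociation can induce, were mostly lower in coculture. For wild type 19 of 20 were lower (median -0.70) and for BcatGOF 18 of 20 (median -0.78). Over all tested genes 53.8% and 52.4% were higher. Of these immediate early genes 6 lower and 1 higher had such a p for wild type, and 4 lower and 1 higher for BcatGOF. Their part was not tested either. Their sum was 1509, 3207 and 5391 FPKM in cells grown alone, where Snai1 was at 65.3, 74.0 and 60.1 FPKM. In coculture the sum was 1341, 2285 and 1529 FPKM with wild-type and 1307 and 2884 FPKM with BcatGOF enteroids. Both cocultures thus overlapped in this sum with cells grown alone.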

How the data were processed

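Poly-A RNA of sorted stromal cells was sequenced in 8 libraries. The authors deposited FPKM values for 24930 genes. The sources used here do not say how FPKM was computed. Per the submitters' processing notes, the tools were kallisto (0.46.1) and DESeq2 (1.40.1), with mm9 as the build, and no roles are given. A second table deposited by the authors holds, per the file headers, a log2 fold change and its SE for each gene. The authors' test statistic, a score per gene, was not used further. The authors also deposited a p-value and an adjusted p per gene, and a mean normalized count, a signal averaged over libraries. That table lists only genes with adjusted p up to 0.015.

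From the FPKM table, every gene that reached 1 FPKM in 2 or more libraries was tested (12927). Log2 of FPKM plus 1 was fitted with 3 group means in limma 3.58.1 (R 4.3.3, statmod 1.5.0, trend and robust moderation, 5 residual degrees of freedom). This fit left out the replicate number, so spread between numbers entered the errors. The added 1 shrinks fold changes of low genes. Tests were two-sided, with Benjamini-Hochberg adjustment over all tested genes and a threshold of 0.05. Errors of means are SD over libraries. Absolute depth is unknown, so no counting intervals were made. Plots used matplotlib 3.10.9 and python 3.11.15.

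Deviations from group means correlated, across genes, at 0.301 to 0.554 between libraries of the same number (7 pairs). Between others they correlated at -0.483 to 0.208 (14 pairs). Deviations sum to 0 within a group, so the values between others partly follow from those of the same number. On the correlations within numbers, the numbers were taken to pair the samples. Adding the number to the model as a replicate block was 1 alternative. The others were added values of 0.1 and 0.5, no filter, a mean of at least 5 FPKM, quantile normalization, upper-quartile scaling, no trend or robust options, 2 groups alone and each library left out.

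The members, lists and rules were chosen with earlier results of these data known. All 8 members are named. From a list, its 3 most abundant members may be named, and for each member the 2 genes with the nearest profile. Other genes were named after their values were seen: Dcn, Pdgfra and Ptprc as markers, Xist, Ddx3y, Tcf21, Tgfb2, Tgfb3, Smad7, Skil and Itga5. Snai3, Scrt1 and Zeb2os were named as relatives or antisense genes of the members. Promoter windows came from RefSeq on GRCm38.p6, a build other than mm9, and were matched by symbol. Only their 250 bases before the start were used.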

Additional observations from a re-analysis of the deposited data

How the results depend on the processing

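Of the 408 recomputed log2 fold changes of the 8 members, 379 kept their direction and their side of the threshold, 1 passed and 28 changed sign, all of these with adjusted p above 0.05. The number of members that passed was 0 under every alternative, except that against cells grown alone it was 1 (Snai1) without BcatGOF replicate 1. Leaving out libraries gave 0 to 1 members for that comparison. Snai1 against cells grown alone stayed positive throughout, at 0.88 to 1.07 with wild-type and 0.71 to 1.56 with BcatGOF enteroids (adjusted p 0.0383 to 1). For Snai2 with BcatGOF enteroids the value was -0.019 with quantile normalization, -0.044 with upper-quartile scaling and -0.089 with the replicate block. Between BcatGOF and wild type the block gave -0.0024 for Twist1 and -0.14 for Prrx1. The replicate block changed no call of a member after adjustment, and gave Snai1 adjusted p of 0.254 and 0.632 against cells grown alone.

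With single libraries left out, values with wild-type enteroids ran from -0.11 to 0.26 for Snai2, -0.15 to 0.28 for Twist1, -0.086 to 0.51 for Twist2, -0.14 to 0.26 for Zeb1, 0.089 to 1.06 for Prrx1 and -0.064 to 0.41 for Prrx2. With BcatGOF enteroids they ran from -0.12 to 0.18 for Snai2, -0.020 to 1.48 for Twist2, -0.52 to 0.28 for Zeb1, -0.83 to 0.27 for Zeb2 and 0.44 to 1.36 for Prrx1. Between BcatGOF and wild type they ran from -0.28 to 0.56 for Snai1, -0.20 to 0.11 for Snai2, -0.23 to 1.27 for Twist2, -0.61 to 0.20 for Zeb1, -0.54 to 0.55 for Zeb2, -0.068 to 0.59 for Prrx1 and -0.094 to 0.74 for Prrx2. Cocultures with BcatGOF enteroids have 2 libraries, and their absolute depth is unknown. The cause of these changes was not tested. Over all genes, the 1 call for wild type became 0 with a mean of at least 5 FPKM, 2 with the block, 9 with 2 groups alone, and 7 and 9 without BcatGOF replicate 1 or 2. The 1 call for BcatGOF against cells grown alone became 6 with no filter, 0 with a mean of at least 5 FPKM, 2 without wild-type replicate 2 and 198 without BcatGOF replicate 1. The 0 calls between cocultures became 4 with no filter.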

Other observations

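Relatives of these factors from the same families were mostly at low levels. Of 18 listed, 6 passed the filter and 0 passed the test in any comparison in limma, with 1 at an unadjusted p under 0.05 in each comparison with cells grown alone (both lower). Hand2, a basic helix-loop-helix factor of gut and heart mesenchyme, was the most abundant, at 69.2, 125 and 122 FPKM in cells grown alone, 136, 298 and 272 FPKM with wild-type enteroids, and 82.7 and 279 FPKM with BcatGOF enteroids. All 3 wild-type libraries lay above the libraries grown alone, as did 6.35% of the tested genes, while the BcatGOF libraries of Hand2 lay within and above that range. The log2 fold change of Hand2 with wild-type enteroids was 1.12 (SE 0.51, adjusted p = 1, limma). Scrt1, a relative of the SNAIL genes known from neurons, was at 0.057 to 0.238 FPKM in cells grown alone, at 0.476 to 0.521 FPKM with wild-type enteroids, and at 0.19 and 2.12 FPKM with BcatGOF enteroids. It was below the filter and was not tested.

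Among 20 tested transcription factors of mesenchyme outside these families, 12 were higher with wild-type and 10 with BcatGOF enteroids, with medians of 0.05 and 0.01, and 0 passed in limma. At an unadjusted p under 0.05, 5 were higher and 2 lower with wild type, and 3 were higher and 2 lower with BcatGOF. Sox4, the most abundant, was at 109 to 132 FPKM in cells grown alone, 106 to 125 FPKM with wild-type and 106 and 59.4 FPKM with BcatGOF enteroids. Tcf21, a fibroblast factor named after its values were seen, was at 16.6, 44.6 and 59.9 FPKM in cells grown alone and at 10.2 to 17.8 FPKM in coculture, with log2 fold changes of -1.42 (SE 0.45) and -1.49 (SE 0.50). Foxf2, a forkhead factor of gut mesenchyme, was at 56.8, 54.0 and 42.6 FPKM in cells grown alone and at 103, 104 and 103 FPKM with wild-type enteroids. With BcatGOF enteroids it was at 64.4 and 163 FPKM, so like Snai1 all 5 cocultures lay above the cells grown alone. Taken apart, 6.35% of the tested genes lay so with wild-type and 8.49% with BcatGOF enteroids. The log2 fold changes of Foxf2 were 1.01 (SE 0.32) and 1.00 (SE 0.35), with adjusted p = 0.823 and adjusted p = 0.894 in limma. Its relative Foxf1 was at 50.05 to 58.1 FPKM in cells grown alone and at 43.5 to 102 FPKM in coculture.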
